A study of Mus musculus with 11 samples.

Results

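The comparison was of fecal miRNAs on day 12, in the recovery phase of a chemically induced colitis, with fecal miRNAs before the colitis began. It used the 8 libraries whose columns carry these 2 phases, 4 from day 12 and 4 from before DSS, out of 11 libraries in the series, and every row of the count table. Dextran sulfate sodium (DSS) is a polymer that damages the colonic lining when mice drink it. The day 12 group was C57BL/6 mice that had received 2.5% DSS in drinking water for 5 days and had then been off DSS for 7 days, and the before-DSS group was C57BL/6 mice sampled before any DSS. No genotype, transgene, age or further agent is named in the labels used here. The other 3 libraries came from day 5 of DSS, and their values are given beside a few rows. They entered the comparison through the choice of rows to test, the scaling factors and the shared estimate of spread. No feces from untreated mice on day 12 were part of the 11 libraries, so the phase of colitis and the day of sampling cannot be told apart. Whether each library is a mouse of its own, and whether a mouse gave feces in more than 1 phase, is not in the labels, and the protocol counts fewer libraries than the 11 analysed. The p-values therefore reflect the spread of these libraries, some of which may be technical.

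MiRNAs are short RNAs cut from both arms, 5p and 3p, of a hairpin precursor, and they lower the output of mRNAs that match their seed, the stretch of bases near the 5′ end. Feces hold miRNAs shed from the gut lining, from immune cells that enter the lumen and from blood, and those carried in from upstream organs. Some miRNAs are close to cell type markers: miR-223 is abundant in neutrophils and other myeloid cells, miR-142 in blood cells of all lineages, and miR-192, miR-194 and miR-215 in the epithelium of the intestine.

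The table held 616 rows, and 586 of them had a count in at least 1 of the 8 libraries. Library totals were 40835, 18863, 25073 and 27893 miRNA counts on day 12 and 30418, 13240, 20580 and 27870 before DSS. Levels are given as counts or as CPM, a library's count divided by its total and scaled, with no length term, and all log2 fold changes are day 12 over before DSS with TMM scaling. At these totals 3 counts, taken as the limit of detection, stood for 73.5 to 159.0 CPM in a day 12 library and 98.6 to 226.6 CPM in a before-DSS library. Some libraries stood apart from their group. The median correlation of a library's log levels with the rest of its group was 0.797 to 0.849 for the day 12 libraries, and recovery library 4 lay at the far end of the first principal component, which held 37.0% of the variance. It was 0.853 for before-DSS library 2 and 0.964 to 0.966 for the other before-DSS libraries.

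Of 137 rows with enough counts to test, 9 were higher on day 12 (6.57% of the tested rows) and 0 were lower at an adjusted p under 0.05 in edgeR's quasi-likelihood test. At an unadjusted p under 0.05, 17 rows were higher and 6 lower. DESeq2 called 10 higher and 2 lower, and limma-voom 8 higher and 0 lower. The median log2 fold change over the 137 rows was -0.02, with 64 rows above 0 and 73 below. With the libraries blocked by replicate number, in a fit on the 8 libraries without those of day 5, 11 rows were higher and 1 lower, and the same 8 libraries without the block gave 10 higher and 0 lower. An alternative chosen after seeing the data left out before-DSS library 2 and recovery library 4. It gave 15 higher and 3 lower rows, and all 9 calls remained among them. The 3 lower rows included miR-122-5p and miR-122b-3p, whose counts are identical. With a single library left out, the number of higher rows ran from 5 without before-DSS library 1 to 12 without before-DSS library 2. The 9 rows were both arms of the miR-223 hairpin, both arms of the miR-142a hairpin with the overlapping miR-142b, and miR-139-5p, miR-652-3p, miR-744-5p and miR-146b-5p.

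The mature sequences of these 9 miRNAs are printed first, because 5 of the 9 come from just 2 loci and because shared seeds decide which rows can be expected to share targets. They are RefSeq sequences, 5′ to 3′, placed on GRCm38.p6, with the seed (bases 2 to 8) in capitals.
miR-223-3p: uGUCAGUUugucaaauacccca
miR-223-5p: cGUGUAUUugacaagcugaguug
miR-142a-3p: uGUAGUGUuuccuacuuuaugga
miR-142a-5p: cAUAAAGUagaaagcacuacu
miR-142b: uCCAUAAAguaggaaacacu
miR-139-5p: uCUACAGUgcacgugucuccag
miR-652-3p: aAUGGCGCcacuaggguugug
miR-744-5p: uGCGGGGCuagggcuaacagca
miR-146b-5p: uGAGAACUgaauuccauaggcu
No seed occurs in more than 1 of the 9. All 20 bases of miR-142b are the reverse complement of a stretch of miR-142a-3p, which it overlaps on the opposite strand. The rows had the same count in every library, so they stand for 1 measurement, and the counts do not tell which miRNA the reads came from. Why the counts are the same was not tested.

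The myeloid miRNA miR-223-3p showed the smallest p-value of the table. Its counts were 98, 81, 116 and 185 in the day 12 libraries and 0, 0, 0 and 1 in the before-DSS libraries. Every day 12 library lay far above every before-DSS library, and the 1 count before DSS was in library 4. The ratio of pooled CPM was 392 (exact 95% interval 70.1 to 15532, counting error only), and the log2 fold change was 8.10 ± 0.73 (SE, adjusted p = 1.04e-05). Leaving out 1 library moved it to between 7.62 and 9.73, and the top of this range came from omitting before-DSS library 4, the source of that single count. The other arm of the same hairpin, miR-223-5p, had 24, 11, 21 and 30 counts on day 12 and none in any before-DSS library, which made it at least 23.4-fold higher over a floor of 3 counts for the before-DSS group (adjusted p = 0.00527). The arms held similar proportions in every day 12 library, with 80.3%, 88.0%, 84.7% and 86.0% of miR-223 counts from the 3p arm. The hairpin lies on chromosome X of GRCm38.p6, with the 3p arm at chrX:96242884-96242905 on the plus strand, in an exon of the noncoding transcript F630028O10Rik.

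The miR-142a hairpin, of blood cells, gave the same pattern with more spread. Counts of miR-142a-3p were 63, 4, 17 and 19 on day 12 and 0 in all 4 before-DSS libraries. Recovery library 1 held more than the other 3 day 12 libraries together, and recovery library 2 held the fewest. The row was at least 28.1-fold higher on day 12 over the floor of 3 counts (adjusted p = 0.00591), and it was called in each of the 21 alternatives. Counts of miR-142a-5p were 82, 11, 12 and 25 on day 12 and 1, 1, 0 and 5 before DSS, without overlap in CPM. Its log2 fold change was 3.72 ± 0.83 (SE, adjusted p = 0.0155), and the call was lost without before-DSS library 1 (adjusted p = 0.0659). The value was 2.94 without recovery library 1 and 4.96 without before-DSS library 4. The 3p arm gave 103 of the 233 counts of the hairpin on day 12 and 0 of 7 before DSS. It lies at chr11:87756903-87756925 on the plus strand, in an intron of Mir142hg.

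In bulk fecal RNA, a change in the number of cells of a type and a change in the RNA per cell cannot be told apart. The full list of leukocyte miRNAs had 7 rows, of which 4 were tested and all 4 were higher (background 6.57%). None of these 4 reached the filter on low counts in a before-DSS library, so rows that passed had to be higher after DSS and their number carries no weight of its own. The list summed to 0.669%, 0.620%, 0.722% and 0.950% of the library in day 12 libraries 1 to 4 and to 0.0197%, 0.0453%, 0.0194% and 0.0287% in before-DSS libraries 1 to 4, with no overlap. The untested members were low. The lymphocyte miRNA miR-150-5p had 17 counts over the day 12 libraries and 3 over the before-DSS libraries, miR-155-5p, induced in activated immune cells, had 9 and 0, and miR-342-3p had 11 and 13.

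**Figure D1:**
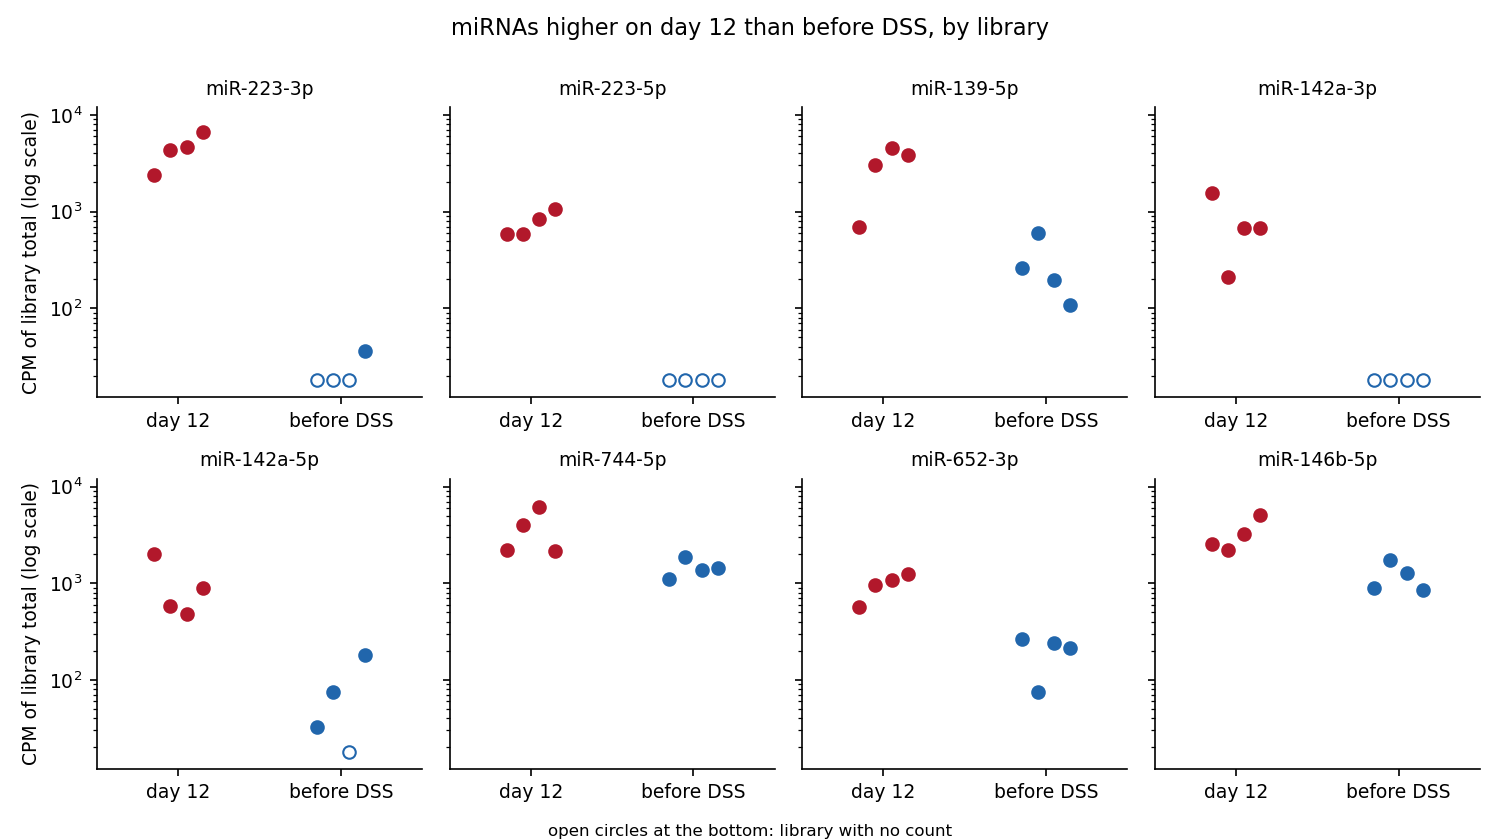
Level of each miRNA called higher on day 12, in CPM of the library total on a log axis, with a point for each library (day 12 on the left, before DSS on the right). Open circles at the bottom are libraries with no count. In all 8 panels the lowest day 12 library lies above the highest before-DSS library. miR-142b is left out because its counts equal those of miR-142a-3p.

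The other called miRNAs had counts in both groups. Of these, miR-652-3p reached the filter on low counts in 4 day 12 libraries and in 0 before-DSS and 0 day 5 libraries. It could therefore enter the test only through the group where it was higher. MiR-139-5p reached the filter in 4 day 12 libraries, 1 before-DSS library and 2 day 5 libraries. The largest fold among them was that of miR-139-5p, encoded in an intron of the phosphodiesterase gene Pde2a (chr7:101475382-101475403, plus strand). Its counts were 28, 57, 113 and 107 on day 12 and 8, 8, 4 and 3 before DSS. The groups did not overlap, although recovery library 1 came close to before-DSS library 2 in CPM (685.7 against 604.2). It was 3.42 ± 0.63 higher on the log2 scale (SE, adjusted p = 0.00559) and was called in each of the 21 alternatives. The other arm, miR-139-3p, had 3 counts over the day 12 libraries and 3 over the before-DSS libraries.

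MiR-652-3p lies in an intron of Tmem164 at chrX:142739060-142739080. It had 23, 18, 27 and 35 counts on day 12 and 8, 1, 5 and 6 before DSS. The mean was 962 ± 293 CPM on day 12 and 199.2 ± 84.7 CPM before DSS (SD, n = 4 each), a log2 fold change of 2.10 ± 0.53 (SE, adjusted p = 0.0301). miR-744-5p, in an intron of the kinase gene Map2k4, had 90, 76, 153 and 60 counts on day 12 and 34, 25, 28 and 40 before DSS. It averaged 3622 ± 1870 CPM on day 12 and 1450.4 ± 321.8 CPM before DSS (SD, n = 4 each), with a log2 fold change of 1.21 ± 0.30 (SE, adjusted p = 0.0301). Both were non-overlapping between the groups. The SD in CPM was larger on day 12 for both, as was the mean.

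These last calls were near the threshold. Of the 21 alternatives, miR-652-3p was called in 16 and miR-744-5p in 14. Leaving out recovery library 3 or before-DSS library 1, 3 or 4 ended both calls, and leaving out recovery library 4 ended that of miR-652-3p. Over the 21 alternatives the adjusted p of miR-652-3p reached 0.105 and that of miR-744-5p reached 0.230. With the library total as the scaling, miR-744-5p was not called.

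MiR-146b-5p is induced by inflammatory signaling and restrains it through adaptors of NF-kB activation. It was at 2547, 2227, 3270.5 and 5055 CPM on day 12 and at 888, 1737, 1263 and 861 CPM before DSS, from at least 23 counts in each library. The groups did not overlap, and the log2 fold change was 1.59 ± 0.41 (SE, adjusted p = 0.0317). With the replicate block it was 1.54 and the adjusted p was 0.0673. Of the 21 alternatives 15 called it, and leaving out recovery library 4 or before-DSS library 1, 3 or 4 ended the call. Its near twin from chromosome 11 has the same seed and was set beside it because its sequence differs from that of miR-146b-5p only near the 3′ end, by G18A and U21C, with positions counted from the 5′ end and the base of miR-146a-5p first.
miR-146a-5p: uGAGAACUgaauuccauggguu
miR-146b-5p: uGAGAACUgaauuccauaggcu
MiR-146a-5p had 49, 32, 30 and 8 counts on day 12 and 31, 10, 24 and 23 before DSS, with overlapping levels and a log2 fold change of 0.08 ± 0.49 (SE, adjusted p = 0.956). The ratio of miR-146b-5p to miR-146a-5p within a library was 2.12, 1.31, 2.73 and 17.6 on day 12 and 0.871, 2.30, 1.08 and 1.04 before DSS. The ratios overlapped through before-DSS library 2, and an exact two-sided permutation test over the 8 libraries gave p = 0.0857. A difference between the twins was therefore not shown.

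**Figure D2:**
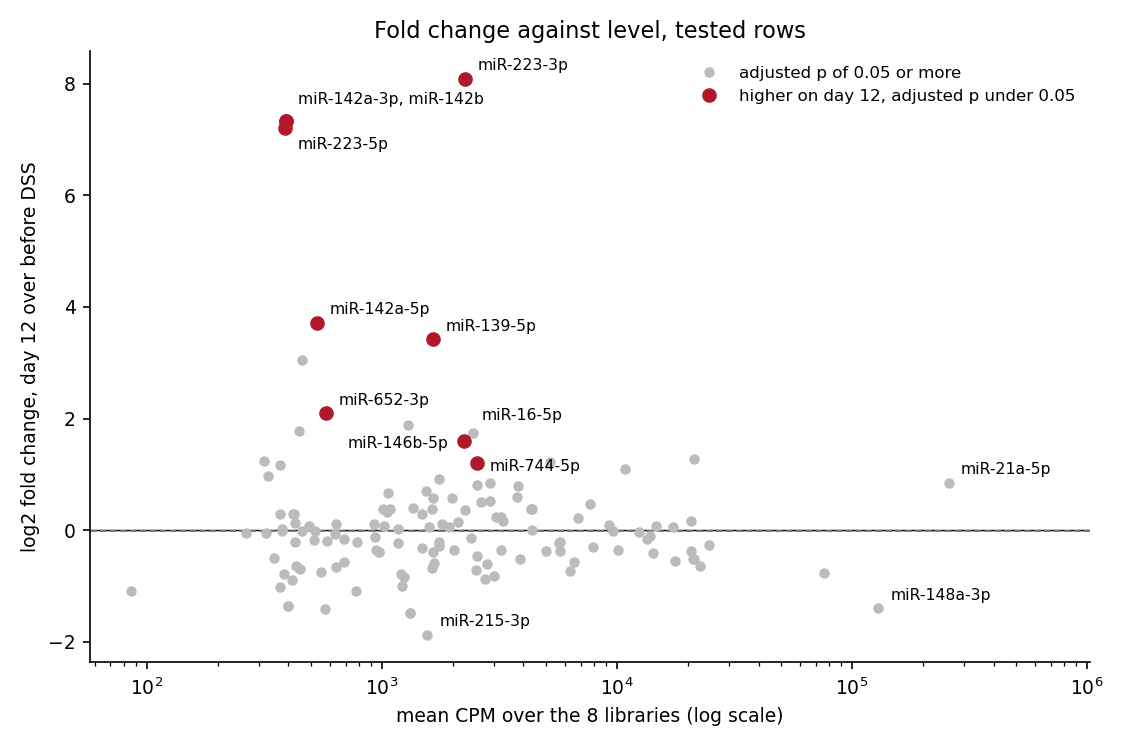
Log2 fold change of day 12 over before DSS against the mean CPM of the 8 libraries (log axis) for the 137 tested rows. Red points passed an adjusted p of 0.05. The dashed line is the median of all points, -0.02, and the named grey points are miRNAs discussed in the text.

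Day 5 values of some called miRNAs are given here beside those of day 12 and before DSS. Pooled counts of miR-223-3p were 1 before DSS, 15 on day 5 and 480 on day 12, with totals of 92108, 42075 and 112664 counts. Day 12 over day 5 was called for miR-223-3p (log2 fold change 4.01, adjusted p = 0.00192), in a comparison with 2.92% of the tested rows called higher, and day 5 over before DSS was not called (4.09, adjusted p = 0.0831). For miR-652-3p and miR-744-5p the differences of day 12 over day 5 were 2.82 (adjusted p = 0.0404) and 1.35 (adjusted p = 0.0476), and those of day 5 over before DSS were -0.72 and -0.14, neither called. miR-142a-5p had 12, 7 and 10 counts in the day 5 libraries, and day 12 over day 5, at 1.04, was not called (adjusted p = 0.469). The comparisons share libraries, so their values are given side by side and were not set against each other.

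The most abundant pair of miRNAs differed between the groups in opposite directions as a share of the total. MiR-21a-5p, of many inflamed and regenerating tissues, and miR-148a-3p, abundant in the gut lining and liver, are encoded on chromosomes 11 and 6 and have unrelated sequences, printed here because they hold the largest shares of the counts.
miR-21a-5p: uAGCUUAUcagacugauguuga
miR-148a-3p: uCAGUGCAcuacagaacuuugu
miR-21a-5p was 37.1%, 25.0%, 27.3% and 42.0% of the day 12 libraries and 20.9%, 15.7%, 18.4% and 19.4% of the before-DSS libraries. miR-148a-3p was 10.5%, 8.15%, 6.51% and 4.13% on day 12 and 20.0%, 14.0%, 18.1% and 22.0% before DSS. Neither overlapped between the groups as a share of the total.

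With TMM scaling both did overlap, and neither passed the test across all rows. The log2 fold change of miR-21a-5p was 0.85 ± 0.42 (SE, adjusted p = 0.346) and that of miR-148a-3p was -1.40 ± 0.43 (SE, adjusted p = 0.0803). The library total as the scaling called both, miR-21a-5p as higher and miR-148a-3p as lower, and DESeq2 called miR-148a-3p lower. Their ratio within a library does not depend on the scaling. MiR-21a-5p over miR-148a-3p was 3.54, 3.06, 4.20 and 10.1 on day 12 and 1.05, 1.12, 1.02 and 0.882 before DSS, a difference of 2.19 on the log2 scale. Recovery library 4 was the highest of the day 12 libraries, and the before-DSS ratios lay close to 1 in all 4 libraries. The exact two-sided permutation test gave p = 0.0286, the smallest that 4 against 4 libraries allow, and the adjusted p over the 45 pairs of the 10 most abundant rows was 0.184. Of those 45 pairs, 7 did not overlap (15.6%), all of them with miR-21a-5p or miR-148a-3p. The ratio was singled out after its values were seen.

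**Figure D3:**
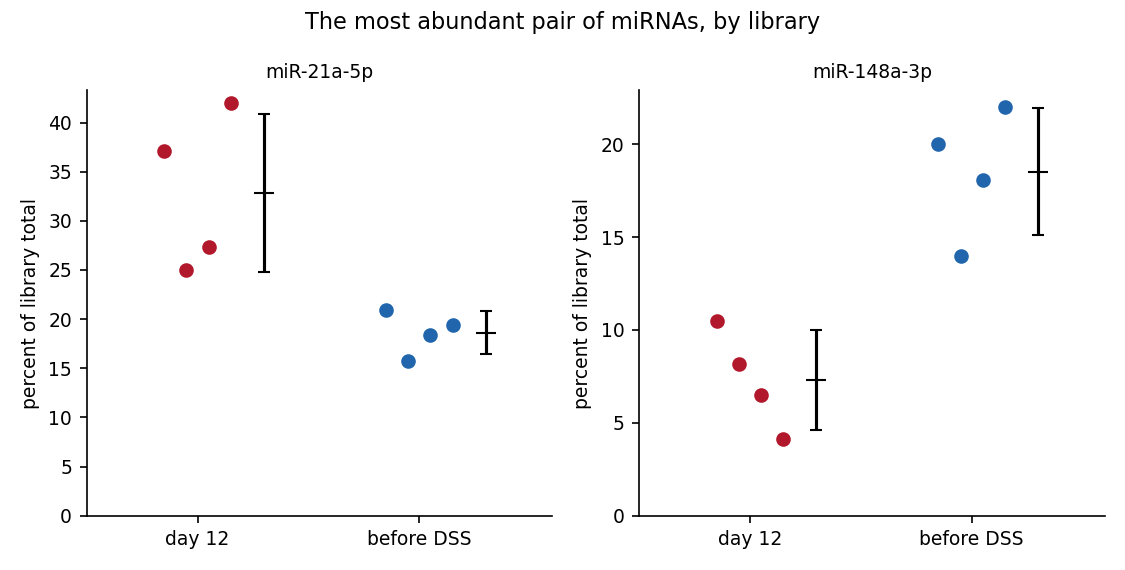
Share of the library total held by miR-21a-5p (left) and miR-148a-3p (right), in percent, with a point for each library and the mean ± SD (n = 4 each) in black, day 12 on the left and before DSS on the right of each panel. MiR-21a-5p averaged 32.8 ± 8.05% on day 12 and 18.6 ± 2.21% before DSS, and miR-148a-3p 7.32 ± 2.68% and 18.5 ± 3.42%.

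Rows were also summed by seed, since miRNAs with the same seed can act on the same sites. Of 83 seed families tested, 7 were higher on day 12 (8.43%) and 2 were lower (2.41%), and with the replicate block 12 were higher and 2 lower. The 7 higher families each held 1 row, and 2 of them were the pair of rows with identical counts, miR-142a-3p and miR-142b. The scaling of the sums moved the median of all 83 families to -0.23, against -0.02 for the rows, and the families below are to be read against that shift. The first lower family was CAGUGCA, with miR-148a-3p, miR-148b-3p and miR-152-3p, which share all bases of the seed.
miR-148b-3p: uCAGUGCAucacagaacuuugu
miR-152-3p: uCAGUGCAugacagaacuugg
The family had 8889 counts on day 12 and 17974 before DSS, of which miR-148a-3p held 8605 and 17794. Its log2 fold change was -1.62 ± 0.42 (SE, adjusted p = 0.0199), and with the factors of the single rows it was still called lower. Within it, miR-148b-3p had a positive value that was not called, a log2 fold change of 0.58 ± 0.29 (SE, adjusted p = 0.346). The ratio of miR-148a-3p to miR-148b-3p was 54.9, 27.5, 22.0 and 23.1 on day 12 and 243.6, 77.2, 82.7 and 149.6 before DSS, without overlap (exact two-sided permutation test, p = 0.0286, adjusted p = 0.0952 over the 5 ratios chosen after values were seen).

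The second lower family was CUGUCAU, which is miR-215-3p alone, the lesser arm of an intestinal hairpin on chromosome 1. Its log2 fold change was -2.15 ± 0.59 as a seed family (SE, adjusted p = 0.0269) and it was not called lower with the factors of the single rows. Both lower families were lost when any 1 of 6 libraries was left out, namely recovery libraries 2, 3 and 4 and before-DSS libraries 1, 3 and 4, which left 0 lower families in each case. Among the families not called, AGCAGCA held 6 rows of the miR-15 and miR-16 family, with 533 counts on day 12 and 142 before DSS and a log2 fold change of 1.37 ± 0.47 (SE, adjusted p = 0.0934).

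The arms of the miR-215 hairpin had unequal values. They are printed because the measurement is about the arms of 1 precursor, at chr1:185313610-185313630 for the 5p arm and chr1:185313647-185313667 for the 3p arm, in an exon of 2010103J01Rik.
miR-215-5p: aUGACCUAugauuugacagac
miR-215-3p: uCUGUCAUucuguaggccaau
The 5p arm had 2147 counts over the day 12 libraries and 2306 over the before-DSS libraries, and its log2 fold change was -0.38 ± 0.54 (SE, adjusted p = 0.738). The 3p arm had 81 counts on day 12 and 241 before DSS, at -1.88 ± 0.58 (SE, adjusted p = 0.0803), and it was called lower with the replicate block (-1.86, adjusted p = 0.0238). As a share of the hairpin's counts, which no library scaling can move, the 3p arm was 4.23%, 2.57%, 3.00% and 3.53% on day 12 and 9.03%, 8.57%, 11.9% and 8.83% before DSS. The highest day 12 library lay below the lowest before-DSS library, and the day 5 libraries, at 5.79%, 6.06% and 8.12%, lay between them. The exact two-sided permutation test gave p = 0.0286, the smallest possible. Of 29 hairpins with at least 10 counts of each arm over the 8 libraries and a count of either arm in every library, miR-215 was the 1 hairpin (3.45%) whose shares did not overlap, and the adjusted p over the 29 was 0.414. The miR-223 and miR-142a hairpins were not among the 29, because at least 1 before-DSS library held no count of either arm. It was chosen from the 29 after its values were seen.

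**Figure D4:**
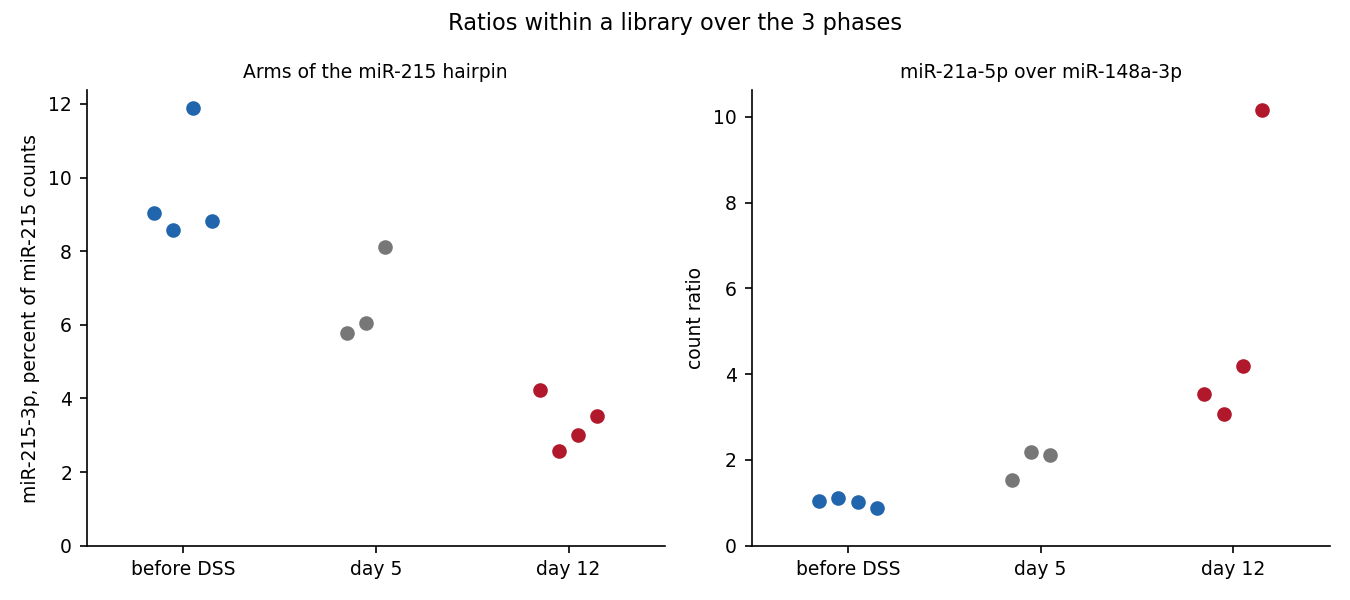
Left, share of the miR-215 counts that came from the 3p arm, in percent. Right, ratio of miR-21a-5p to miR-148a-3p counts. Each point is a library and the phases run in time order: 4 libraries before DSS, 3 on day 5 and 4 on day 12. On day 12 the arm share was 2.57% to 4.23%, against 8.57% to 11.9% before DSS, and the ratio was 3.06 to 10.1 on day 12, against 0.882 to 1.12 before DSS.

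The next smallest p-values did not pass the adjusted threshold. MiR-16-5p, a red cell and ubiquitous miRNA, averaged 3731 ± 1624 CPM on day 12 and 1142 ± 213 CPM before DSS (SD, n = 4 each) and had a log2 fold change of 1.74 ± 0.52 (SE, adjusted p = 0.0788). It was called in 7 of the 21 alternatives, among them the fit on the 8 libraries without a block and the one with it (adjusted p = 0.0146 with the block). miR-15b-5p, from the same transcript as a copy of miR-16, had 1.77 ± 0.65 (SE, adjusted p = 0.162) and was called in 2 alternatives, with the block (adjusted p = 0.0294) and without recovery library 2.

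The liver miRNA miR-122-5p had a log2 fold change of -1.48 ± 0.54 (SE, adjusted p = 0.162). Its CPM of the library total did not overlap between the groups, at 171 to 1325 on day 12 and 1409 to 3057 before DSS. The groups did overlap with TMM scaling. The row of miR-122b-3p had identical counts. The muscle miRNA miR-1a-3p was at -1.37 ± 0.61 (SE, adjusted p = 0.267), and miR-23a-3p, at 0.91 ± 0.37 (SE, adjusted p = 0.209), did not overlap between the groups in either scaling. The row novel_363, which has no miRNA name, was at 3.06 (adjusted p = 0.267) and was called higher with the block (adjusted p = 0.0238). It was 0.235%, 0.0106%, 0.0638% and 0.0215% of the day 12 libraries and 0.0197%, 0%, 0.00486% and 0.0108% of the before-DSS libraries, with overlap. Its log2 fold change fell to as low as 1.36 when a library was left out.

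With TMM-scaled CPM, 12 of the 137 rows were higher on day 12 in every day 12 library than in every before-DSS library (8.76%), and 4 were lower (2.92%). The 9 called rows were among the 12.

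The lists of miRNAs by cell type and family showed few calls besides the leukocyte list. Of 4 tested members of the inflammation-induced list, miR-146b-5p was higher and none was lower (background 6.57%), with a median of 0.46. The list summed to 34.7 ± 7.40% of the library on day 12 and 20.2 ± 1.81% before DSS (SD, n = 4 each), nearly all of it miR-21a-5p. The gut epithelium list had 6 tested members, no calls and a median of -0.58, and summed to 17.2 ± 4.17% on day 12 and 32.9 ± 8.12% before DSS (SD, n = 4 each). By library it was 23.2%, 16.2%, 13.5% and 15.9% on day 12 and 36.6%, 21.8%, 32.3% and 40.7% before DSS, with overlap through before-DSS library 2 and recovery library 1. Between libraries of the same column number it was lower on day 12 in 4 of 4 pairs, given as a description without a test. Its most abundant member before DSS was miR-148a-3p, given above with a log2 fold change of -1.40 (adjusted p = 0.0803). That row alone averaged 7.32% of the library on day 12 and 18.5% before DSS, much of the difference in the sum. Of the other abundant members of the list, miR-192-5p was at -0.77 ± 0.60 (SE, adjusted p = 0.597) and miR-194-5p at 0.16 ± 0.48 (SE, adjusted p = 0.896).

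The miR-200 family of epithelial cells had 6 tested members with no calls and a median of -0.02. Its members spread widely, from -1.42 for miR-141-3p to 1.27 for miR-200b-3p. MiR-200b-3p and miR-200a-3p come from neighbouring hairpins on chromosome 4, and their log2 fold changes were 1.27 ± 0.52 (SE, adjusted p = 0.212) and -0.56 ± 0.47 (SE, adjusted p = 0.607). The ratio of miR-200b-3p to miR-200a-3p was 1.14, 2.88, 1.66 and 2.57 on day 12 and 0.488, 1.56, 0.372 and 0.412 before DSS. The ratio was higher on day 12 in 4 of 4 pairs of libraries of the same column number, and the groups overlapped through before-DSS library 2 (exact two-sided permutation test, p = 0.0571, adjusted p = 0.0952 over the same 5 ratios).

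Markers of other cells that feces can hold were given by the same lists. The erythroid list had 5 tested members, no calls and a median of 0.39, and miR-451a, the most specific red cell miRNA of it, ranged from 2767 to 15703 CPM on day 12 and from 4844 to 9366 CPM before DSS. Without recovery library 4 the log2 fold change of miR-451a was -0.29, against 0.47 with it, and those of the 3 miR-486 rows, whose counts are nearly identical, were -0.45 to -0.46, against 0.38 to 0.39. The neuronal list had 7 tested members, no calls and a median of -0.39, and the smooth muscle and stroma list 4, none and -0.58. In the neuronal list miR-9-5p and miR-9b-3p have nearly identical counts, as do miR-129-5p and miR-129b-3p, so its 7 members are not 7 separate measurements. The 2 rows of the liver list, miR-122-5p and miR-122b-3p, have identical counts and are 1 measurement. miR-122-5p alone was 0.0171%, 0.133%, 0.0678% and 0.0860% of the library on day 12 and 0.306%, 0.144%, 0.141% and 0.158% before DSS. It had no call, and its groups did not overlap as a share of the total but did with TMM scaling. The squamous epithelium list was 0.157%, 2.85%, 0.108% and 0.129% on day 12 and 0.276%, 0.113%, 0.185% and 0.255% before DSS, with recovery library 2 far above the rest. Their part in the differences above was not tested.

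Families with many members showed no call in either direction. The let-7 family had 9 tested members and a median of -0.30, the miR-30 family 7 and -0.21, the miR-17-92 group with its paralogs 8 and 0.18, the miR-23, miR-27 and miR-24 group 6 and -0.16, and miR-99 with miR-100 4 and -0.64. The endothelium, striated muscle, squamous epithelium and miR-29 lists had 1 tested member each with no call, the miR-378 and liver lists 2 each, and the miR-34 and miR-449 list none.

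**Figure D5:**
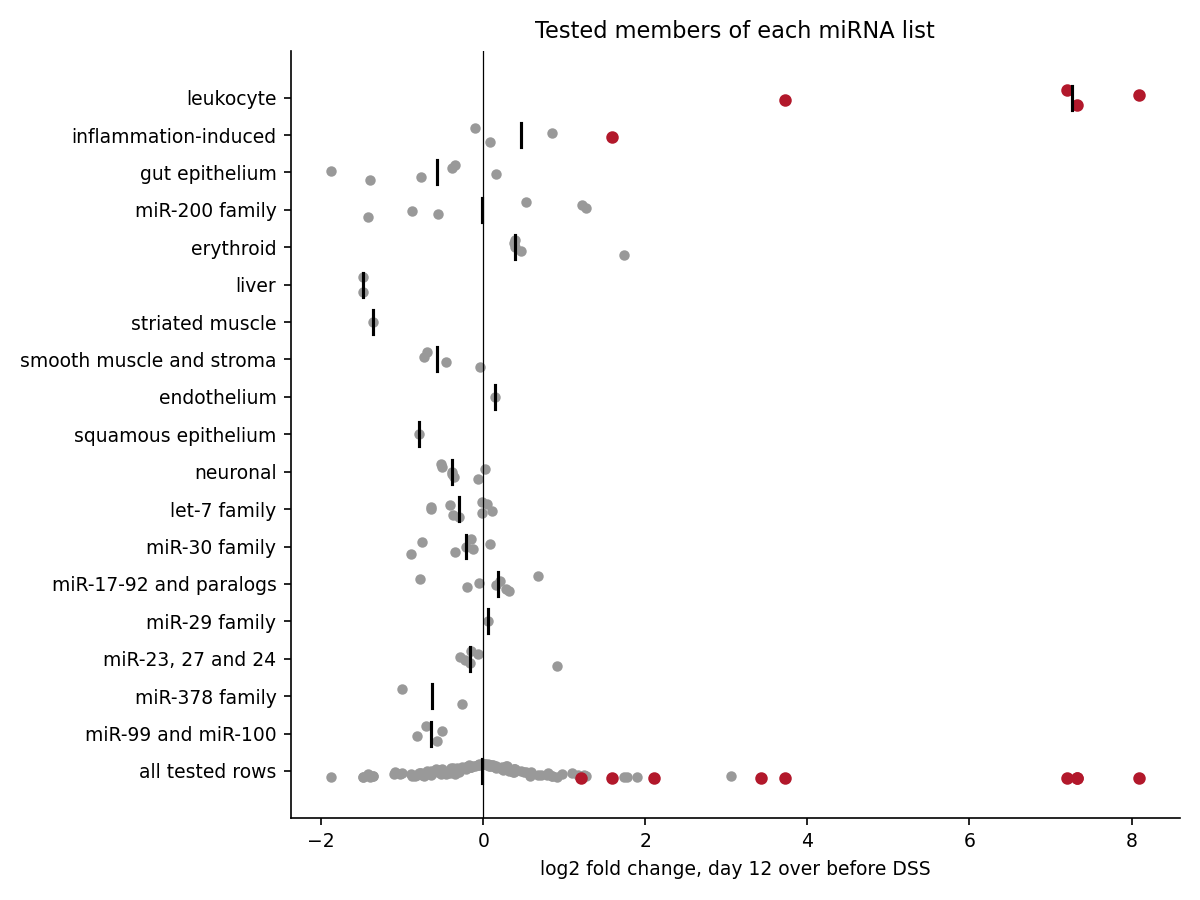
Log2 fold change of day 12 over before DSS for the tested members of each miRNA list, with all 137 tested rows at the bottom. Red points passed an adjusted p of 0.05 and black ticks are medians. The 4 leukocyte members lie between 3.72 and 8.10, and the median of all rows is -0.02. These 4 reached the filter on low counts in no before-DSS library, so they could enter only by being higher after DSS.

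The breadth of the profile overlapped between the groups. At an equal draw of 13240 counts a library, 273 ± 33.9 rows were detected on day 12 and 268 ± 13.7 before DSS (SD, n = 4 each; exact two-sided permutation test, p = 0.8). The 5 most abundant rows held 52.6 ± 10.2% of the counts on day 12 and 53.5 ± 8.33% before DSS (SD, n = 4 each; exact two-sided permutation test, p = 0.971). Both had an adjusted p of 0.971. Of the 586 rows with a count, 385 were seen in both groups and 73 before DSS only, and the rest on day 12 only. Only 5 rows with at least 10 counts were absent before DSS, namely miR-223-5p, miR-142a-3p with miR-142b, and the unnamed novel_401 and novel_325. Novel_358 was the 1 such row absent on day 12, with 23 counts before DSS.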

How the data were processed

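Small RNA from feces was extracted with a mirVana kit, made into libraries with a TruSeq Small RNA kit and sequenced on a HiSeq 2500, and adapter dimers, junk, low complexity reads, other RNA classes and repeats were taken out with ACGT101-miR, per the labels' protocols. For the aligner, miRNA release and genome build, the answer is not given in the sources used here. The deposited table gives raw counts per row, and its 11 scaled columns were not used.

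Phases came from the labels. The day in the names of the before-DSS columns is not the one in the titles, so these columns were assigned by elimination, as the group left. The day 5 columns carry numbers 1, 3 and 4. Both sets of columns were assigned to their group only, not to single samples. Any 2 libraries of a group differed by more than counting noise (the smallest chi-square per degree of freedom was 3.85). Day 12 and before-DSS libraries of the same column number deviated together from their group means (r = 0.314, 0.512, 0.152 and 0.408), and by the rule used here, every such r over 0.1, the numbers were taken to pair them. Libraries of different numbers had r from -0.598 to 0.462, and recovery library 1 correlated best with before-DSS library 4, and recovery library 3 with before-DSS library 2, rather than with their own numbers. The pairing comes from the column numbers, not from a statement in the labels, and these correlations cannot establish it. The main fit and the permutation tests did not use it.

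Counts were tested with edgeR 4.0.16 (TMM, quasi-likelihood F-test, default filter, all 11 libraries) in R 4.3.3 with Benjamini-Hochberg adjustment over 137 rows, which held 94.5% to 98.2% of the counts of the 8 libraries. Of the 9 called rows, 7 reached the filter's level in at most 1 before-DSS library. DESeq2 1.42.0 and limma 3.58.1 were alternatives. Seed sums used the 461 named rows that matched a RefSeq mature sequence. Single values were compared with exact permutation tests in scipy 1.17.1. Floors and intervals cover counting error only.

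The lists and the rule for naming miRNAs were chosen with earlier results of these data known. The rule took all called rows, the next 8 by p in each direction, the 10 most abundant rows, the other arms and seed mates of called rows, up to 4 members of each list, rows absent from 1 group and rows called by an alternative fit.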

Additional observations from a re-analysis of the deposited data

Results flagged for a closer look

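In 188 groups of 4 libraries, 21 held a library far from the other 3 by Dixon's ratio. The groups are not independent, as some rows have identical counts, and some groups hold a count in 1 library only. The number flagged can therefore not be set against a rate expected by chance. The values are in CPM and name the library that stood apart.

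Among the miRNAs named above, recovery library 4 held the lowest let-7g-5p of its group, at 6382, and the highest miR-194-5p, at 31191, and recovery library 1 held the lowest miR-191-5p, at 1298. miR-223-3p was at 35.9 in before-DSS library 4, the only before-DSS library with a count of it. Before-DSS library 2 held the lowest miR-215-3p, at 1359.5, and the highest miR-200b-3p, at 24925, while before-DSS library 1 held the highest miR-122-5p and miR-122b-3p, at 3057 each.

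The squamous miRNA miR-205-5p was at 359 in recovery library 4 and at 302 in before-DSS library 2, the highest of their groups. The muscle miRNA miR-133a-3p was at 212 in recovery library 2 and at 98.6 in before-DSS library 1, and miR-133b-3p was at 71.7 in recovery library 4. miR-29c-3p was at 196 in recovery library 1 and miR-34b-5p at 48.6 in before-DSS library 3. These were 10 counts or fewer each. Before-DSS library 2 also held the highest miR-10b-5p (4079), miR-129-5p (2266) and novel_285 (831) of its group.

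Some rows were seen mainly in 1 library. miR-184-3p, known from the corneal epithelium, was at 27514 in recovery library 2. The unnamed novel_401 was at 5664.5 in recovery library 4 and in no other library, with 158 counts, and novel_325 was at 901 in recovery library 2.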

How the results depend on the processing

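The 9 calls were recomputed under 21 alternatives. miR-223-3p, miR-223-5p, miR-139-5p and miR-142a-3p with miR-142b were called in each one they entered. Without the filter 15 rows were higher and 2 lower, with a filter of 10 CPM in at least 3 libraries 10 and 1, with the library total as the scaling 10 and 2, with DESeq2 10 and 2. The replicate block gave 11 higher and 1 lower rows, and 12 higher and 2 lower seed families. That fit leaves out the day 5 libraries. The same 8 libraries without the block gave 10 and 0, adding miR-16-5p, and beside that fit the block ended the call of miR-146b-5p, added miR-15b-5p and novel_363 as higher and miR-215-3p as lower, and changed no other row's call. An alternative chosen after seeing the data, without before-DSS library 2 and recovery library 4, gave 15 and 3, and 13 higher and 3 lower seed families. Leaving out each replicate gave 5 to 12 higher and 0 to 2 lower rows, 17 to 30 rows without overlap, and 5 to 10 higher and 0 to 3 lower seed families. The fewest calls, 5, were without before-DSS library 1 and the most, 12, without before-DSS library 2. Non-overlapping rows numbered 28 without recovery library 1 and 30 without before-DSS library 2, against 16 with all. Lower seed families numbered 1 with TMMwsp factors, 1 with only the 8 libraries and 1 with the factors of the single rows, this last one chosen after seeing the data. The rarefied rows differed by 4.94 (day 12 minus before DSS) and by -5.97 to 19.6 with a replicate left out, and the share of the top 5 rows by -0.886 and by -4.75 to 2.10 percentage points, so both changed sign, and 3 against 4 libraries cannot reach 0.05. Sign changes of a fold change numbered 59, none in a called value. The cause of these changes was not tested. Depth limits rows near 3 counts.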

Other observations

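Among the rows that the test did not use, miR-184-3p had the largest count on day 12, 532 over the 4 libraries, nearly all of it in recovery library 2. The squamous epithelium list, of which it is a member, made up 2.85% of that library and at most 0.157% of the other day 12 libraries. The numbered row novel_401 had 158 counts in recovery library 4 and none in the other 10 libraries of the series.

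The neuronal miR-9-5p and miR-9b-3p, which have nearly identical counts, were 1810 and 1805 over the day 12 libraries and 1923 and 1921 over the before-DSS libraries. The ratio of miR-21a-5p to miR-9-5p was 36.6, 7.95, 8.78 and 488 on day 12 and 10.7, 3.63, 8.21 and 18.3 before DSS. Recovery library 4, with the highest ratio, held 24 counts of miR-9-5p, or 0.0860% of its total, the fewest of the 8 libraries.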
